A study of Homo sapiens with 2 samples.

Results

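Cyclin D, its partner kinases CDK4 and CDK6, the inhibitors that restrain them and the retinoblastoma gene RB1 were examined in HSC-3 cells given the ferroptosis inducer FIN56. The 10 genes (CCND1, CCND2, CCND3, CDK4, CDK6, CDKN1A, CDKN1B, CDKN2A, CDKN2B and RB1) were chosen by name for their role in the G1 phase, and each matched 1 of the 60616 rows of the deposited tables. One of them, CCND1, was already known to be higher with FIN56 in the study's own gene list, which was drawn from these libraries, so its value is a description and not independent evidence. The RNA came from 1 culture labelled DMSO (0.1%) and 1 labelled FIN56 at 1 µM for 48 h, and the labels give no time for the DMSO culture. HSC-3 is an established human tongue squamous carcinoma line, and both cultures were grown in DMEM with fetal bovine serum, with no engineered allele named. FIN56 is a small molecule that lowers the lipid peroxidase GPX4 and drives ferroptosis, a death by peroxidation of membrane lipids, and the study describes the dose as sublethal.

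With a single library on each side, no test between the conditions could be made, and the spread between cultures is unknown for every value below. Each ratio is FIN56 over DMSO. FPKM counts fragments per kilobase of effective gene length and per library size, TPM is the same quantity rescaled to a fixed sum, and an expected count is the number of fragments that RSEM assigned to a gene. The intervals given are 95% Clopper-Pearson intervals on rounded expected counts, scaled by library totals. They cover counting error between these libraries and nothing else, because no molecular identifiers were used and amplified reads can share a molecule. Expected counts summed to 70184517 with DMSO and 73062209 with FIN56, so that all 10 genes had more than 1000 in each library.

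The label of the cells was checked first. All 10 squamous markers were present, with KRT5 at an FPKM of 2078 and 1647 and TP63 at 85.6 and 92.6 in the DMSO and FIN56 libraries. Of the 9 markers of other cell types, the leukocyte genes PTPRC and CD3E and the muscle gene DES were listed at 0 in both libraries, and the endothelial gene PECAM1 at 0. COL1A1, a fibroblast collagen, had an FPKM of 4.25 and 2.19 and CD68, a lysosomal macrophage protein, 57.3 and 24.6, both at 1/1.5 or less with FIN56. DCN was at 0.15 and 0.21, and VWF at 0.08 and 0.06. The part of other cells in the results was not tested. In bulk RNA of this kind, fewer cells of a type and less RNA per cell cannot be told apart.

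In the G1 phase, growth signals raise the D-type cyclins, which bind CDK4 or CDK6, and the complexes phosphorylate the RB protein. Phosphorylated RB releases E2F transcription factors, which switch on the genes of DNA replication. The INK4 proteins p15 (from CDKN2B) and p16 (from CDKN2A) block CDK4 and CDK6, while p21 (from CDKN1A) and p27 (from CDKN1B) bind cyclin-CDK complexes and inhibit above all those of CDK2. Gain of CCND1 and loss of CDKN2A are frequent lesions of head and neck squamous carcinoma.

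The promoters of the pathway are shown for the members whose rows differ most in kind, namely a D cyclin, its kinase and the inhibitor with alternative first exons. RefSeq windows (GRCh38.p14) were matched by symbol for 8 of the 10 genes, 12 windows in all, and CCND1 and CCND2 had no entry. Each window below is the 250 bases before a transcript start, written 5′ to 3′ on the strand of the gene. Capitals mark the letters CACGTG (E-box) and GGGCGG (GC box, the SP1 element) on either strand. CCND3 is shown at 2 of its 3 starts, chr6:42048689-42048938 (distal) and chr6:41941809-41942058 (proximal). These labels refer only to the 2 windows shown, and the third start lies downstream of both. CDK4 is shown at chr12:57752311-57752560. CDKN2A is shown at both starts, chr9:21995325-21995574 before the first exon of p14ARF and chr9:21974858-21975107 before that of p16, since the deposited row sums both products. All of these lie on the minus strand.
CCND3 distal: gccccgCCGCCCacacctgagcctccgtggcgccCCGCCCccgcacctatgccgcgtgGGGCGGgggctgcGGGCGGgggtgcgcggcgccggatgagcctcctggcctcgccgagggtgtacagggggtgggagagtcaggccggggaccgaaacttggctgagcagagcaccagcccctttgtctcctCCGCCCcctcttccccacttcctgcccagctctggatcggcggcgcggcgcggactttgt
CCND3 proximal: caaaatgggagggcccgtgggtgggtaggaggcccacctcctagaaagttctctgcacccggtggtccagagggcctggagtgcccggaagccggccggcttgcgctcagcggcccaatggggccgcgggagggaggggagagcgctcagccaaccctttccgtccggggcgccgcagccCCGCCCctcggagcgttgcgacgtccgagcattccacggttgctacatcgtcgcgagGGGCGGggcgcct
CDK4: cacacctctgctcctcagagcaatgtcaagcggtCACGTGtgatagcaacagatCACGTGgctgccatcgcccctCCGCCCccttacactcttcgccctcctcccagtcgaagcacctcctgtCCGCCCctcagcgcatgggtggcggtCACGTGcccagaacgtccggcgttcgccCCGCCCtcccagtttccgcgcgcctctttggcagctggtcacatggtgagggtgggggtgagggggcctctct
CDKN2A p14ARF: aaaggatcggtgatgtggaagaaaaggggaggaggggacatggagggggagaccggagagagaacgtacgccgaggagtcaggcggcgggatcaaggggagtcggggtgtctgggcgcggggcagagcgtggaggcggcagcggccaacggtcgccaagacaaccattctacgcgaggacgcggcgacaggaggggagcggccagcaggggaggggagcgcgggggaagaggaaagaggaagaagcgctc
CDKN2A p16: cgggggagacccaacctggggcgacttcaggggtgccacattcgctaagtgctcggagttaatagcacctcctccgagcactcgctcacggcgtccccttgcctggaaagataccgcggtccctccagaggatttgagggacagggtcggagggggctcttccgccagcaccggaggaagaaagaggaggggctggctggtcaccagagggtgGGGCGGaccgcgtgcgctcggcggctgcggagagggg

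The distal CCND3 window held 5 GC boxes and the proximal window 2. CDK4 held 3 GC boxes and 3 E-boxes, and of the 12 windows of the 8 matched genes it was the only one with an E-box, a sequence found in 6.34% of all 35116 windows. The third CCND3 window, not printed, held no GC box. The p16 window held 1 GC box and the p14ARF window none. In all, 8 of the 12 windows of the members had a GC box, against 42.6% of all windows, and their GC content ran from 36.8% at the start inside RB1 to 80% at a CDK6 start, against a median of 58.0% over all windows. The E2F letters TTTGGCGC or TTTCGCGC (0.968% of all windows), the FOXO letters GTAAACA (2.98%), the AP-1 letters TGAGTCA (4.20%) and the CRE letters TGACGTCA (1.65%) were in none of the 12. The GC boxes of CDKN1A included an overlapping pair, and no other motifs overlapped. The RB1 entry is a start inside the gene and is not shown.

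Of the 10 genes, the 2 D-type cyclins CCND1 and CCND2 reached a ratio of 1.5 or more in FPKM, and no gene reached 1/1.5 or less. Of the 24454 genes detected by FPKM in each library, 14.7% reached 1.5 and 17.3% reached 1/1.5 or less. For the 8541 well counted genes, those that had no fewer than 1000 expected counts in either library and that include all 10 members, the shares were 2.26% and 3.49%. The median log2 FPKM ratio of the 10 genes was 0.11, beside 0.05 over those 8541 genes. The third D cyclin, CCND3, was also higher, and the kinases, the inhibitors and RB1 lay between 0.859 and 1.19.

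CCND1 (ENSG00000110092, chromosome 11, 69641156 to 69654474, plus strand, GRCh38), which encodes cyclin D1, had an FPKM of 246.56 with DMSO and 418.70 with FIN56. It was the most abundant of the 10 in both libraries. In the DMSO library 368 genes had a higher FPKM, and in the FIN56 library 221. The FPKM ratio was 1.70, and the expected counts of 67716 and 118837 gave a count ratio of 1.69 (95% interval 1.67 to 1.70). TPM gave 1.74. Of the 8541 well counted genes, 63 stood higher by FPKM ratio, which ranks CCND1 at 64. At its 3′ end CCND1 overlaps exons of LTO1 on the other strand, and LTO1 had an FPKM of 29.2 and 28.5.

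Genes of high level rarely reached that ratio. Of 929 genes that stood at 100 FPKM or more in each library, 15 were at 1.5 or more (1.61%), and 5 stood above CCND1. By FPKM ratio these were the myosin light chain gene MYL12A (2.16), the interferon-inducible gene IFI27 (2.06), the serpin gene SERPINB2 (1.80), the RNA-processing factor gene ACIN1 (1.78) and NT5E (1.72), which encodes the ectonucleotidase CD73. CCND1 had a higher FPKM in the DMSO library than any of them. By counts, ACIN1 was at 1.60, below CCND1. The increase of 172 FPKM units in CCND1 was 7.58 times that in CCND2.

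CCND2 (ENSG00000118971, chromosome 12, 4269771 to 4305353), the gene of cyclin D2, had an FPKM of 31.12 with DMSO and 53.84 with FIN56. Its FPKM ratio of 1.73 was the highest of the 10, at rank 50 of the 8541 genes. Expected counts of 13337 and 24556 gave a count ratio of 1.77 (1.73 to 1.81). These counts are not whole numbers, and the exons of CCND2 overlap those of a gene on the same strand listed as AC008012.1 (ENSG00000285901), which had 1323 and 2157 expected counts and a count ratio of 1.57. When the counts of both genes were added, a step chosen after the overlap was seen, the ratio was 1.75 (1.72 to 1.79). CCND2-AS1 on the opposite strand had 42.4 and 28.7 expected counts. The order of CCND1 and CCND2 by ratio is a small difference and has no replicate spread to be set against.

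CCND3 (ENSG00000112576, chromosome 6, 41934934 to 42050357), for cyclin D3, was the least abundant D cyclin, with an FPKM of 8.97 with DMSO and 12.60 with FIN56. The ratio was 1.40, below the threshold of 1.5, and 384 of the 8541 genes stood higher. Its expected counts of 1176 and 1662 were whole numbers, as they were for 5 of the 10 members, and the count ratio of 1.36 had an interval of 1.259 to 1.46. Scaled by library totals, this interval stayed below 1.5, a threshold that was set for FPKM ratios. With DESeq2 size factors, another scaling, the count ratio was 1.39, and no interval was taken.

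All 3 D-type cyclins were higher in the FIN56 library, from starting levels that spanned 27.5-fold in FPKM. Added up in TPM they came to 429 with DMSO and 742 with FIN56, a ratio of 1.73. The make-up of the pool was nearly the same, with CCND1 at 86% and 86.3%, CCND2 at 10.9% and 11.1% and CCND3 at 3.13% and 2.6%. The plot of levels shows the 3 cyclins displaced to the right with FIN56 and the other 7 genes with shorter lines.

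**Figure D1:**
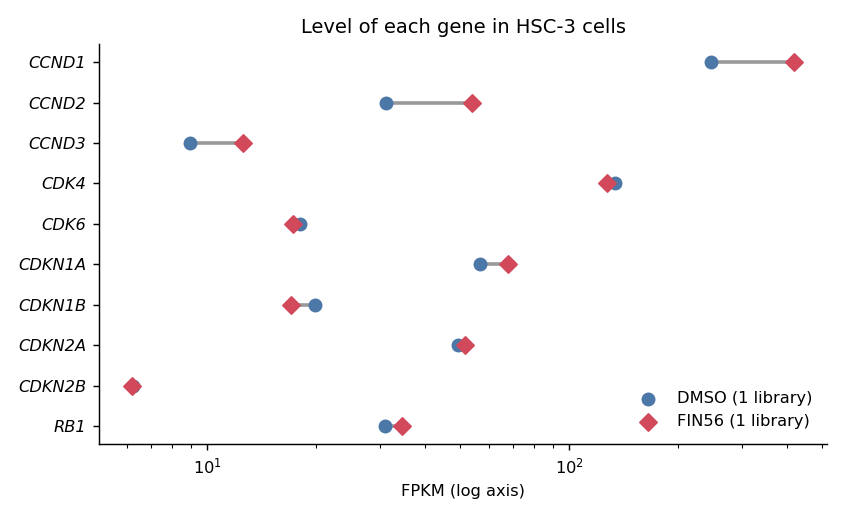
Level of each of the 10 genes as FPKM on a log axis, with a circle for the DMSO library and a diamond for the FIN56 library, 1 library each. The longest lines belong to CCND1 (246.56 to 418.70) and CCND2 (31.12 to 53.84), and the symbols of CDKN2B (6.24 and 6.19) nearly coincide.

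The partner kinases were not higher. CDK4 (ENSG00000135446, chromosome 12, 57747727 to 57756013), the second most abundant member, had an FPKM of 134.11 with DMSO and 127.42 with FIN56, a ratio of 0.95 with a count interval of 0.920 to 0.966. CDK6 (ENSG00000105810, chromosome 7, 92604921 to 92836573), a kinase with the same partners, had an FPKM of 18.02 and 17.23, a ratio of 0.956 with a count interval of 0.951 to 0.996. Both lay slightly under 1, between the 25th and 75th percentiles of the 8541 genes, 0.903 and 1.17. In TPM the sum of CDK4 and CDK6 was 228 and 221. The D cyclins held 1.88 transcripts for each CDK4 or CDK6 transcript with DMSO and 3.35 with FIN56, as a ratio of TPM sums.

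The inhibitors of the p21 family differed in direction. CDKN1A (ENSG00000124762, chromosome 6, 36676460 to 36687337), the gene of p21, had an FPKM of 56.70 with DMSO and 67.58 with FIN56, from 7923 and 9889 expected counts, and a count ratio of 1.20 (1.16 to 1.24). Its FPKM ratio of 1.19 was above that of 78.6% of the 8541 genes. CDKN1B (ENSG00000111276, chromosome 12, 12685498 to 12722369) had an FPKM of 19.85 and 17.06, and its ratio of 0.859 was the lowest of the 10. The count ratio of CDKN1B was 0.860 (0.817 to 0.904), and 19.2% of the 8541 genes stood lower by FPKM ratio. The effective length behind both genes was almost equal in the libraries, with ratios of 1.01 and 1.00.

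The INK4 inhibitors at 9p21 were nearly level. CDKN2A (ENSG00000147889, chromosome 9, 21967752 to 21995301) was expressed, with an FPKM of 49.32 with DMSO and 51.55 with FIN56. The FPKM ratio of 1.045 stands beside a count ratio of 0.989 (0.938 to 1.04), so its direction depends on the measure. The effective length that links the measures was 767 bases with DMSO and 726 with FIN56, and the row does not show how p16 and p14ARF transcripts divide it. CDKN2B (ENSG00000147883, chromosome 9, 22002903 to 22009305) was the least abundant of the 10, with an FPKM of 6.24 and 6.19. Its FPKM ratio of 0.992 stands beside a count ratio of 0.907 (0.839 to 0.981), with effective lengths of 3039 and 2780 bases, and TPM placed it at 1.01. The exons of CDKN2B-AS1 overlap those of CDKN2A on the opposite strand. The library kit keeps strand, and whether the counting used it is not given in the sources used here.

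RB1 (ENSG00000139687, chromosome 13, 48303744 to 48599436), the substrate of the cyclin D kinases, had an FPKM of 30.94 with DMSO and 34.55 with FIN56. The ratio was 1.12, with a count ratio of 1.099 (1.07 to 1.13), and 66.0% of the 8541 genes stood below it. All 4 inhibitors together had a TPM of 198 and 218, a ratio of 1.102. As a ratio of TPM sums, there were 2.17 D cyclin transcripts for each inhibitor transcript with DMSO and 3.41 with FIN56. The inhibitor sum takes the whole CDKN2A row, in which p16 and p14ARF transcripts are not separated.

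**Figure D2:**
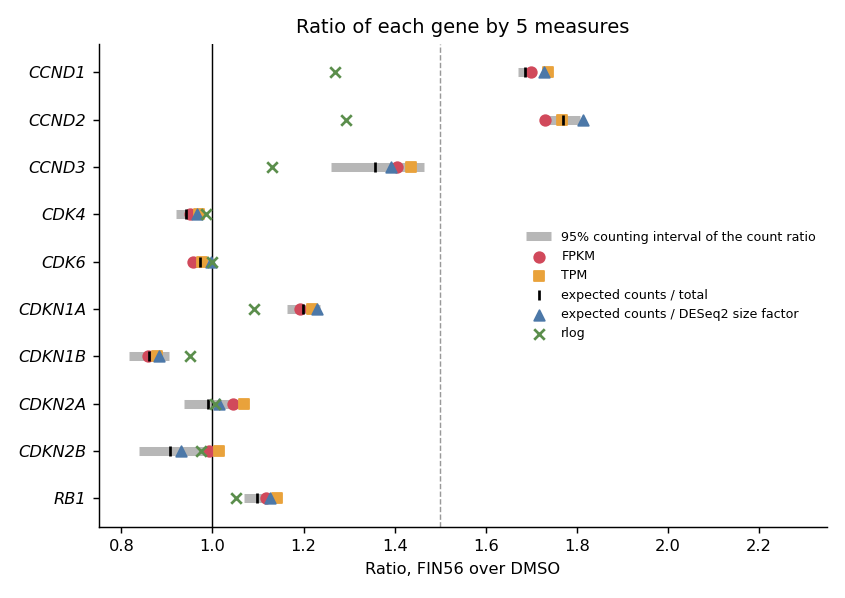
Ratio of FIN56 over DMSO for each gene by FPKM, TPM, expected counts scaled by library totals or by DESeq2 size factors, and rlog values; the grey bar is the 95% counting interval of the count ratio, the solid line marks 1 and the dashed line 1.5. CCND1 and CCND2 lie to the right of 1.5 by every measure but rlog, where they are at 1.27 and 1.29, and the symbols of CDKN2A and CDKN2B fall on both sides of 1.

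Scaled by library totals, the counting interval lay above 1 for 5 members (CCND1, CCND2, CCND3, CDKN1A and RB1). It lay below 1 for 4 (CDK4, CDK6, CDKN1B and CDKN2B) and included 1 for CDKN2A. With DESeq2 size factors the count ratio was 0.998 for CDK6 and 0.930 for CDKN2B, and no intervals were taken at that scaling. At this depth the interval lay above 1 for 44.6% and below 1 for 36.5% of the 8541 genes. By FPKM ratio, only CCND1, CCND2 and CCND3 of the 10 lay beyond 1.39, the 95th percentile of the FPKM ratios of those genes. CCND3 passed it narrowly, at 1.40, and its count ratio scaled by library totals was 1.36.

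**Figure D3:**
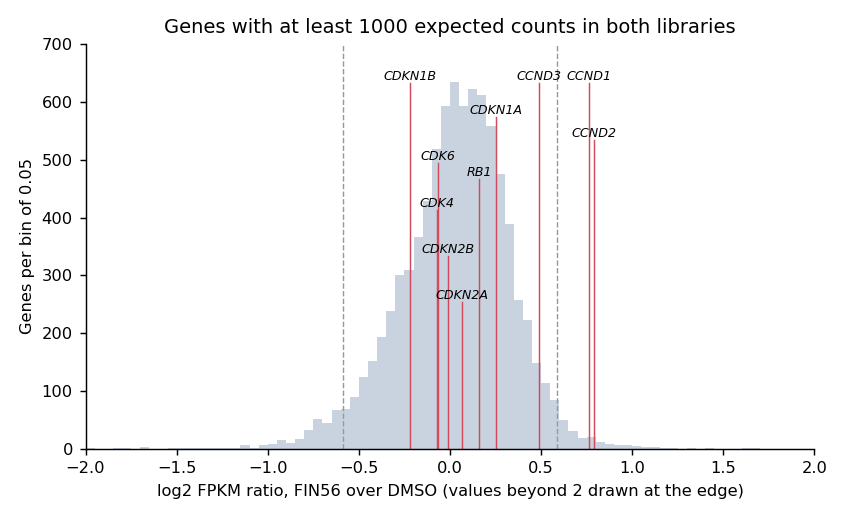
Log2 FPKM ratio of the 8541 well counted genes, as genes per bin, with red lines at the 10 members and dashed lines at ratios of 1.5 and 1/1.5. CCND1 (0.76) and CCND2 (0.79) lie in the right tail, CCND3 (0.49) at its foot and the other members in the body of the distribution.

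By level, the order in the DMSO library was CCND1, CDK4, CDKN1A, CDKN2A, CCND2, RB1, CDKN1B, CDK6, CCND3 and CDKN2B. In the FIN56 library CCND2 (53.84) stood above CDKN2A (51.55), and CDK6 (17.23) above CDKN1B (17.06). CCND2 and RB1 were almost equal with DMSO, at 31.12 and 30.94. No spread over samples exists, so it cannot be said which neighbours in this order differ.

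The genes around the members in the pathway were read from lists by role. The other cyclins, kinases, inhibitors and pocket proteins of the G1/S transition counted 8 genes, of which 1 was at 1.5 or more and 2 at 1/1.5 or less, with a median log2 FPKM ratio of -0.12. CCNE2, for cyclin E2, was higher, at an FPKM of 11.02 and 16.62, a ratio of 1.51 and a count ratio of 1.69. Its counterpart CCNE1 had 99 and 95 expected counts. CDK2, the kinase of cyclin E and the most abundant gene of the list, had an FPKM of 70.02 and 66.5. CDKN2C, which encodes the INK4 protein p18, was lower, at an FPKM of 8.72 and 5.51, a ratio of 0.632. RBL2, for the RB relative p130, which holds E2F4 in resting cells, was also lower, at 13.45 and 8.93, a ratio of 0.664. CDKN1C (p57) had the lowest level, with 33 and 29 expected counts.

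None of the 10 E2F and DP genes reached either threshold, with 5 above and 5 below 1 and a median log2 ratio of 0.00. TFDP1, the DP partner with the highest level, had an FPKM of 127.62 and 109.23, and E2F2, the lowest by FPKM in the DMSO library, 1.5 and 1.42. E2F1 had 2596 and 2602 expected counts, and E2F3 had the highest ratio, 1.32.

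Of 24 genes under RB and E2F control in S phase, 11 were above and 13 below 1. By FPKM the median log2 ratio was -0.02, with 1 gene at 1.5 or more (CCNE2) and 1 at 1/1.5 or less. The latter was TYMS, for thymidylate synthase, with an FPKM of 83.15 with DMSO and 54.90 with FIN56 (0.66). RRM2, the small subunit of ribonucleotide reductase, lay just outside by FPKM at 163.71 and 110.41 (0.674). Its count ratio of 0.649 (0.635 to 0.663) was past 1/1.5, as was that of POLA1, 0.646, beside an FPKM ratio of 0.699. PCNA, the sliding clamp of DNA polymerase and the most abundant of the list, was at 247.92 and 282.75 (1.14). The 7 MCM genes, whose products belong to or load with the replicative helicase, ran from 0.825 for MCM7 to 1.25 for MCM10. The enzymes of nucleotide supply RRM2, TYMS and TK1 (0.712) were lower and 5 of the 7 MCM genes higher, a contrast chosen after the values were seen.

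The CDK-activating kinase (CDK7, CCNH, MNAT1) and the chaperones of CDK4 and CDK6 held no gene past either threshold among 6. HSP90AA1, the highest of them, had an FPKM of 881.91 and 847.06, and CCNH, the cyclin of the complex and the lowest, 36.61 and 26.02 (0.711). Among the 15 parts and adaptors of the ubiquitin ligases that degrade D cyclins, p21 or p27, 14 could be compared and none passed a threshold, with a median log2 ratio of -0.12. SKP1 was highest at 404.24 and 473.20, and CRYAB was lowest, with 2 and 0 expected counts. FBXO31, a D cyclin adaptor, had the highest ratio of the list, 1.38, and AMBRA1, the main adaptor for all D cyclins, was at 10.23 and 10.58.

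Of 13 listed factors that act on the genes or proteins of members, 7 were above and 6 below 1, with a median log2 ratio of 0.04. CBX7, a Polycomb protein known to silence CDKN2A, was at 1.59 and 0.93 FPKM (0.585), the single gene past a threshold by FPKM. FOSL1, an AP-1 subunit and the highest of the list, had an FPKM of 257.35 and 319.70 (1.24). MDM2, a ubiquitin ligase, had an FPKM of 26.57 and 33.45.

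**Figure D4:**
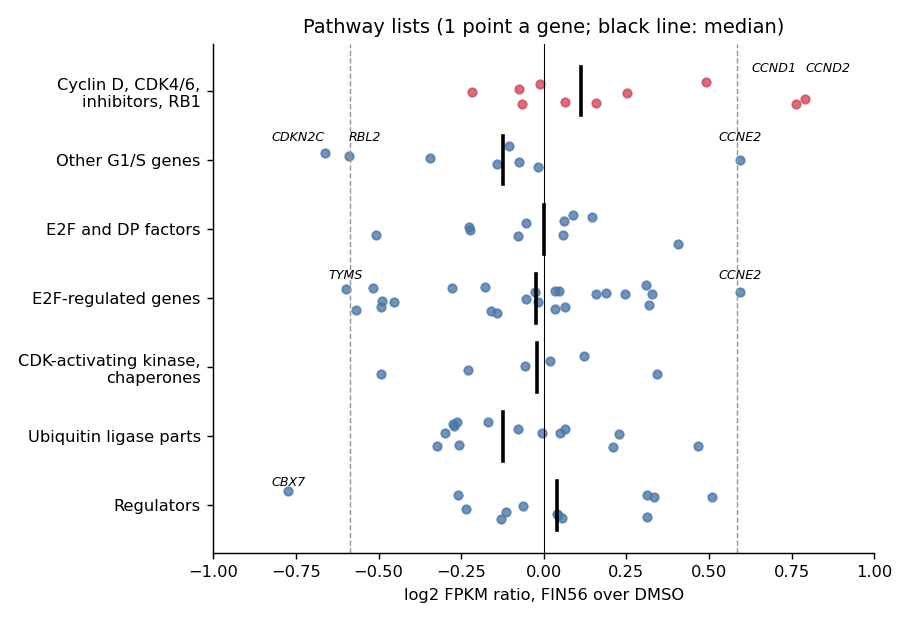
Log2 FPKM ratio of FIN56 over DMSO for the genes of 7 lists, 1 point a gene (vertical scatter carries no value), with the median as a black line and dashed lines at ratios of 1.5 and 1/1.5. The 10 members have a median of 0.11 with CCND1 and CCND2 beyond the right line, and the other medians run from -0.12 to 0.04.

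The neighbours of CCND1 at 11q13, a region often gained as a block in this cancer, were compared as a list of 11 genes, of which 8 had an FPKM above 0 in both libraries. CTTN, for the actin-binding protein cortactin, had an FPKM of 231.52 and 276.84 (1.20). FADD, a death receptor adaptor, had 67.35 and 78.12 (1.16), and PPFIA1 had 51.21 and 51.32 (1.00). All of these ratios were below that of CCND1. ANO1, a chloride channel gene 345 kb from the CCND1 start, was lower, at 437 and 286 expected counts (count ratio 0.628, interval 0.540 to 0.731), and its FPKM ratio of 0.685 stayed above 1/1.5. SHANK2 had an FPKM ratio of 0.663 but a count ratio of 0.756 (0.612 to 0.933), from 207 and 163 expected counts. TPCN2 was at an FPKM ratio of 0.849. MYEOV had an FPKM ratio of 2.50 but a count ratio of 1.19 (0.98 to 1.44), from 199 and 246 expected counts. FGF3 and FGF4 were listed at 0, and FGF19 at 0 and 2 expected counts.

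At 9p21, MTAP, the methionine salvage gene that is often lost together with CDKN2A, had an FPKM of 46.94 and 47.73 (1.02), and KLHL9 6.11 and 6.86 (1.12). CDKN2B-AS1 was at 4.01 and 3.22, a ratio of 0.803 and a count ratio of 0.729 (0.647 to 0.821). IFNE, an interferon gene of epithelia at -513 kb from the CDKN2A start, had 258 and 885 expected counts and an FPKM ratio of 3.30 (count interval 2.87 to 3.80). IFNA1 with 4 and 13 expected counts, DMRTA1 with 35 and 34 and CDKN2A-DT with 2 and 3 had few reads.

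**Figure D5:**
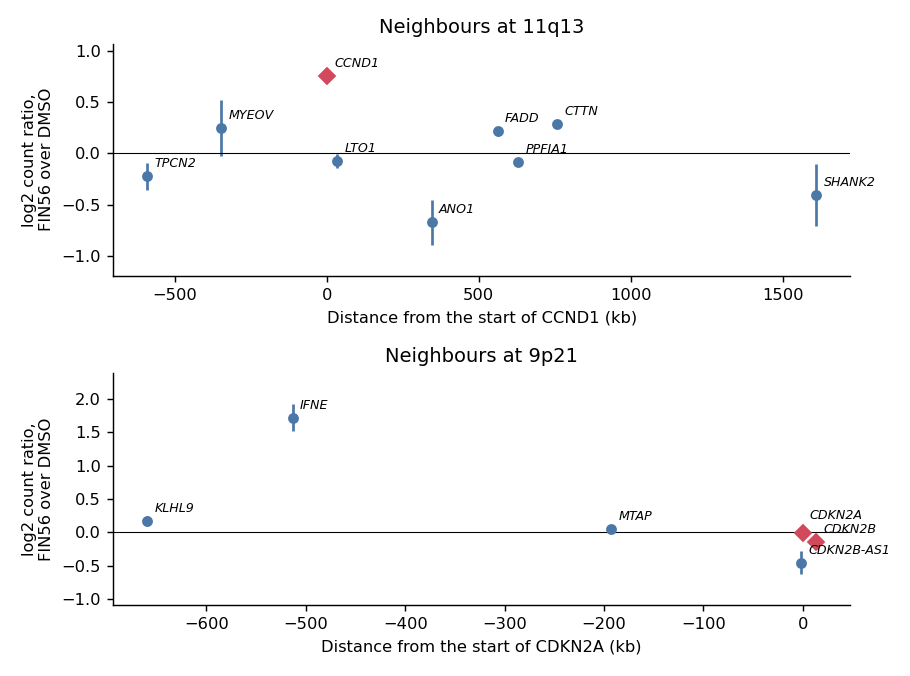
Log2 count ratio of FIN56 over DMSO, scaled by library totals, against the distance in kb from the start of CCND1 (top) or CDKN2A (bottom) for neighbours with at least 100 expected counts together (circles) and the members (diamonds); bars are 95% counting intervals. CCND1 stands above its 8 plotted neighbours, and at 9p21 IFNE lies highest and CDKN2B-AS1 lowest.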

How the data were processed

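RNA from 2 cultures of HSC-3 cells was sequenced after a TruSeq Stranded mRNA preparation, 1 library per group. Per the labels, and the methods stated for tumor samples of the same study, the authors trimmed with AfterQC, checked with FastQC 0.11.7, mapped to GRCh38 by STAR 2.6.1a and quantified genes by RSEM 1.3.1. The deposited expected count is raw, the deposited FPKM is scaled to length and depth, and the deposited TPM sums to 1000000. The authors' rlog is a log2 value from DESeq2 1.26.0.

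Rows were matched by symbol. Ratios of FPKM were taken for genes above 0 in each library against the study's fold of 1.5, compared in whole hundredths, and no test was run. The study's own list of raised genes at that fold was shorter than the set that reached it here. Size factors came from edgeR 4.0.16 (TMM) and DESeq2 1.42.0 on rounded expected counts, and intervals from scipy 1.17.1. The members and all lists were chosen with earlier results of these data known. Beside the members, the rule named list genes with 100 or more expected counts past the threshold, the highest and lowest of each list, locus neighbours, and abundant genes above CCND1. RRM2, POLA1, TK1, MCM7, MCM10, E2F1, E2F3, MDM2, FBXO31 and AMBRA1 were named after their values were seen, as were SKP2 and the other genes whose ratios differ between measures. Positions came from GENCODE release 44, later than the authors' annotation. Some genes counted in the lists are not reported here by name. The count ratio and interval steps were checked as code on simulated counts with known ratios. FPKM ratios and the spread between cultures were not part of that check.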

Additional observations from a re-analysis of the deposited data

How the results depend on the processing

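No paired analysis was possible because a single library stood for either condition, and for the same reason no library could be left out. CCND1 and CCND2 were the members at 1.5 or more by FPKM, and the count stayed at 2 with TPM, TMM, DESeq2 size factors, library totals and both pseudocounts. The 3 filters on low values could not change it, since every member passes them. It was 0 with rlog values, which are shrunken by construction, and 0 at a threshold of 2. No member was at 1/1.5 or less under any of these settings. Over all genes, the counts at 1.5 or more and at 1/1.5 or less were 3583 and 4240. They were 7 and 16 with rlog values, 476 and 785 with a pseudocount of 1 FPKM, 2088 and 2384 at a threshold of 2, 489 and 855 for genes reaching 1 FPKM in each library, and 1323 and 1936 for genes reaching 10 expected counts in each. A minimum of 1000 expected counts, chosen after seeing the data, left 193 and 298. These minimums leave fewer genes to compare. Without rlog values, CCND1 ranged from 1.68 to 1.74, CCND2 from 1.71 to 1.81 and CCND3 from 1.36 to 1.44. CDKN2A was below 1 with TMM and library totals and CDKN2B above 1 with TPM, so neither has a settled direction. The other 8 members kept theirs with TPM, rlog, TMM, DESeq2 size factors, library totals and both pseudocounts. CDK6 did so only narrowly, at 0.998 with DESeq2 size factors and 0.999 with rlog values, so it was close to level.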

Other observations

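The FPKM ratio and the count ratio of a gene differ where RSEM estimated another effective length in each library. Among 92 listed pathway and neighbour genes with at least 100 expected counts, these ratios differed by more than 1.1-fold for 10 (10.9%), among them CCNE2, RBL1, TFDP1, SKP2, MYEOV, SHANK2, CDKN2B-AS1, ZBTB17 and CBX7. The share was 12.5% for the 8541 well counted genes. The ratios lay on opposite sides of 1 for 6 of the 92 genes and for 8.45% of the 8541. SKP2, the F-box protein that marks p27 for degradation, had an FPKM of 45 with DMSO and 42.59 with FIN56 (0.946) but 8753 and 7079 expected counts (count ratio 0.777), and its effective length was 2771 and 2275 bases. TFDP1 had 17472 and 17454 expected counts (0.960) beside its FPKM ratio of 0.856. A change in the mix of transcripts was not examined, since the deposited rows are sums over transcripts.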
